A study of Homo sapiens with 12 samples.

Results

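The levels of 10 genes known as transcriptional targets of the tumour suppressor p53 were followed in MDA-MB-231, a cell line from a human triple-negative breast tumour that is known to carry mutant p53. They were CDKN1A, MDM2, SESN1, BTG2, TP53I3, RRM2B, PLK2, PLK3, ZMAT3 and TP53INP1. Of these 10 genes, 9 had a row that the platform annotation assigns to that gene alone, out of 18417 genes in all, and BTG2 was not analysed here. The 9 genes had 1 such row each (features 8119088 for CDKN1A, 7956989 for MDM2, 8128698 for SESN1, 8050702 for TP53I3, 8152133 for RRM2B, 8112202 for PLK2, 7901054 for PLK3, 8092230 for ZMAT3 and 8151890 for TP53INP1).

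The study set a derivative that had been treated to resistance (TTR) beside its parental line, and each was profiled after TRAIL, a death ligand of the tumour necrosis factor family, and without it. The groups were TTR cells given TRAIL at 100 ng per ml for 2 hours, untreated TTR cells, parental cells given the same TRAIL dose and time, and untreated parental cells, with 3 one-colour Affymetrix arrays each and 12 in all. All 4 groups come from MDA-MB-231. The labels do not say how many clones make up the TTR line, what it was treated with, or whether replicates were separate cultures, so each p-value reflects the spread among these arrays only. An unexplained tag in the sample descriptions takes one form for the parental line and another for the TTR line, and its meaning cannot be told apart from the line. Values are log2 signals, differences are on the log2 scale and given with the standard error (SE) of a limma fit over all genes, and a gene is called at a Benjamini-Hochberg adjusted p under 0.05.

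In cells with intact p53, stress stabilises the protein, which then binds paired half-sites near its targets and raises their transcription. The targets arrest the cell cycle, adjust metabolism and repair, promote death, and, through MDM2, return p53 to a low level. Many of them also have p53-independent control. PLK2, PLK3 and CDKN1A are known to respond to growth factors and stress kinases, and MDM2 has an internal promoter with p53, AP-1 and ETS sites.

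Arrays from parental cells given TRAIL lay apart from the rest. Their medians over all rows were 4.58 to 4.61, against 4.24 to 4.40 on the other arrays. TRAIL changed 5.82% of genes in TTR cells and 58.8% in parental cells. Among genes called in parental cells the split was 5319 higher and 5508 lower as deposited, and 2328 higher and 8608 lower after each array was centred on its median. The labelled line was checked by its markers. Mesenchymal VIM lay between 11.1 and 11.9 on all arrays, the luminal receptors ESR1 and PGR between 2.21 and 3.87, and the luminal keratins KRT8 and KRT18 between 10.3 and 11.2. The luminal keratin KRT19 lay between 7.59 and 8.73. The mean level of 4 blood markers was 3.32 to 3.75 and that of 6 fibroblast and endothelial markers 3.77 to 4.18. Of the latter, COL1A1 lay higher, between 5.15 and 5.96 on all arrays. Of the blood markers, CD14 lay higher, between 4.03 and 4.99. Untreated, endothelial PECAM1 was called lower in TTR than in parental cells (means 3.85 and 4.72), as was luminal EPCAM (4.22 and 4.70). No other marker of these lists was called between the untreated lines. With TRAIL in parental cells, 2 blood markers rose and 0 fell by limma, 3 fibroblast and endothelial markers rose and 1 fell, 3 of 9 luminal markers rose and 1 fell, and 2 of 6 mesenchymal markers rose and 4 fell. In TTR cells FN1, a mesenchymal marker, was the only one of these lists called for TRAIL (0.83, adjusted p = 0.0468). The part of these shifts in the results below was not tested. In such bulk samples, fewer cells of a type and less RNA per cell cannot be told apart.

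The upstream stretches of the 3 genes that rose with TRAIL in both lines, and the internal promoter of MDM2, which fell in parental cells, show which motif letters lie near these starts. The sequences are from RefSeq on GRCh38.p14 and run 5′ to 3′ over the 250 bases before the start. Capitals mark a match to any motif searched. PLK3 is at chr1:44800127-44800376 on the plus strand, CDKN1A at chr6:36678464-36678713 on the plus strand, PLK2 at chr5:58460087-58460336 on the minus strand and the third MDM2 window at chr12:68808767-68809016 on the plus strand.
PLK3: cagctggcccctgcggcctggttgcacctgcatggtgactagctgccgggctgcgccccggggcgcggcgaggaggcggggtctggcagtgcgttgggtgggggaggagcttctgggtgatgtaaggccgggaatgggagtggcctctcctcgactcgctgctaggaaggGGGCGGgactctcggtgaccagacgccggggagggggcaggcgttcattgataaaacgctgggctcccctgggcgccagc
CDKN1A: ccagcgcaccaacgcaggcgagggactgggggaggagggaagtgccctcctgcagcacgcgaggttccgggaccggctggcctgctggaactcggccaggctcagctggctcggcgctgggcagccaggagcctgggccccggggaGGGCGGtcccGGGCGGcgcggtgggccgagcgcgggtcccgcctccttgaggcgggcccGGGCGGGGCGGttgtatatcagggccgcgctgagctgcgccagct
PLK2: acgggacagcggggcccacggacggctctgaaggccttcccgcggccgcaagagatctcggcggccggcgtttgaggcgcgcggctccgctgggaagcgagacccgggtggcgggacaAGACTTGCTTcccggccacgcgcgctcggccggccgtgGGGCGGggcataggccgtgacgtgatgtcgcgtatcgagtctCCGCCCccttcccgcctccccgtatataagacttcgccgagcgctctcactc
MDM2: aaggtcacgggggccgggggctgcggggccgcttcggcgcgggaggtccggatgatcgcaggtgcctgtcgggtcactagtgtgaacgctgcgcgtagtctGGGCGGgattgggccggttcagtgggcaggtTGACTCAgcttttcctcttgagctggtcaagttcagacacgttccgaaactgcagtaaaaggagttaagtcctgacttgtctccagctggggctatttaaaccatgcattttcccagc

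Motifs were searched on both strands in windows of 300 bases, from 250 before to 50 after the start, and 8 of the 10 genes had such a window. The CDKN1A window held 4 matches to the SP1 core GGGCGG, a pair of which lies side by side from 45 to 35 bases before the start and shares a base. PLK3 held 2 SP1 cores and PLK2 held 2. That core was in 45% of all 35116 windows. PLK2 also held a p53 half-site, a motif whose pattern is the same on both strands, 132 to 123 bases before the start, and the third SESN1 window held another, 49 to 40 bases before the start. Such a half-site was in 6.63% of all windows. The MDM2 window held the AP-1 motif TGANTCA, 118 to 112 bases before the start, which was in 7.71% of all windows. None of the windows of these genes held a pair of exact half-sites within 13 bases, which 0.0285% of all windows did. None held the cyclic AMP response element TGACGTCA (1.85%) or the serum response CArG box (1.29%). The EGR1 motif GCGNGGGCG, whose last letters overlap the SP1 core, was in 9.43% of all windows and, among these genes, only in that of BTG2. The NF-kB motif was in 11.3% of all windows and, among these genes, only in the first window of ZMAT3. These are exact letter matches in short windows, and binding was not measured. The half-site pattern was RRRCWWGYYY (R is A or G, W is A or T, Y is C or T). A site with any mismatch to it was not counted, so the p53 sites known in the MDM2 internal promoter can be missed.

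The first comparison asked what TRAIL did to these genes in parental cells. PLK3, PLK2 and CDKN1A rose, RRM2B, MDM2, ZMAT3, SESN1 and TP53INP1 fell, and TP53I3 did not pass. That is 3 higher and 5 lower of 9, where 28.9% of all genes tested were called higher and 29.9% lower. In all 9 the arrays of the groups did not overlap, as in 62.2% of all genes. The median difference over the 9 genes was −0.50, against 0.05 over all genes, and after median centring −0.79 against −0.24.

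Among the kinases, PLK3, a polo-like kinase of the stress response, stood at 8.85, 8.94 and 8.66 with TRAIL, against 5.23, 5.12 and 5.16 in untreated parental cells. The treated arrays were all far above the untreated ones, and the groups did not overlap. The rise was 12.5-fold (3.65 ± 0.10, adjusted p = 1.07e-13), and ranked 55 among 18417 genes from the largest rise. PLK2, a related kinase that acts on centriole duplication and synapses, stood at 11.05, 11.19 and 11.47 with TRAIL, against 9.06, 9.12 and 9.50 without. Here too the lowest treated array exceeded the highest untreated one, and the group means differed 4.03-fold (2.01 ± 0.14, adjusted p = 4.67e-09).

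CDKN1A encodes p21, the inhibitor of cyclin-dependent kinases through which p53 arrests the cell cycle. It stood at 8.23, 8.25 and 8.28 with TRAIL, against 6.19, 6.15 and 5.93 in untreated parental cells. The treated arrays had an SD of 0.03 and lay clear of the untreated ones, with a group mean 4.47-fold higher (2.16 ± 0.13, adjusted p = 9.36e-10).

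RRM2B, the p53-inducible ribonucleotide reductase subunit that supplies nucleotides for repair, had the largest fall of the 9 genes. It stood at 4.62, 4.44 and 5.13 with TRAIL, against 6.57, 6.73 and 6.62 in untreated parental cells. All treated arrays lay below all untreated ones, with a group mean 3.75-fold lower (−1.91 ± 0.15, adjusted p = 1.19e-08). MDM2, the ubiquitin ligase that marks p53 for destruction, stood at 8.07, 8.22 and 8.69 with TRAIL, against 9.34, 9.30 and 9.31 without. The untreated arrays were tight and the treated arrays lower and more spread, with an average fall of 1.99-fold (−0.99 ± 0.12, adjusted p = 2.92e-06).

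ZMAT3, a zinc finger protein that binds RNA, spanned 5.76 to 6.13 with TRAIL, against 6.56 to 6.64 without (−0.70 ± 0.13, adjusted p = 1.66e-04). SESN1, a stress-induced inhibitor of mTORC1 signalling, spanned 3.35 to 3.56 with TRAIL, against 3.91 to 4.07 without (−0.50 ± 0.12, adjusted p = 0.00182). Its signal was too low for the filter on dim genes, and background can be a large share of such a signal. TP53INP1, a stress protein tied to autophagy and cell death, stood at 3.78, 4.12 and 4.44 with TRAIL, against 4.51, 4.67 and 4.995 without (−0.61 ± 0.21, adjusted p = 0.0216). Its highest treated array nearly reached its lowest untreated one, and its call was lost without untreated array 3 (adjusted p = 0.0988) or TRAIL array 1 (0.111) or 2 (0.0514). Across alternatives its adjusted p lay between 3.30e-04 and 0.111. TP53I3, a quinone oxidoreductase linked to reactive oxygen species, spanned 6.42 to 6.61 with TRAIL, against 6.30 to 6.36 without, a difference of 0.18 ± 0.14 (adjusted p = 0.292, 95% interval −0.12 to 0.48). The other 8 genes kept their direction under each scaling, while TP53I3 stood at −0.11 after median centring.

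**Figure D1:**
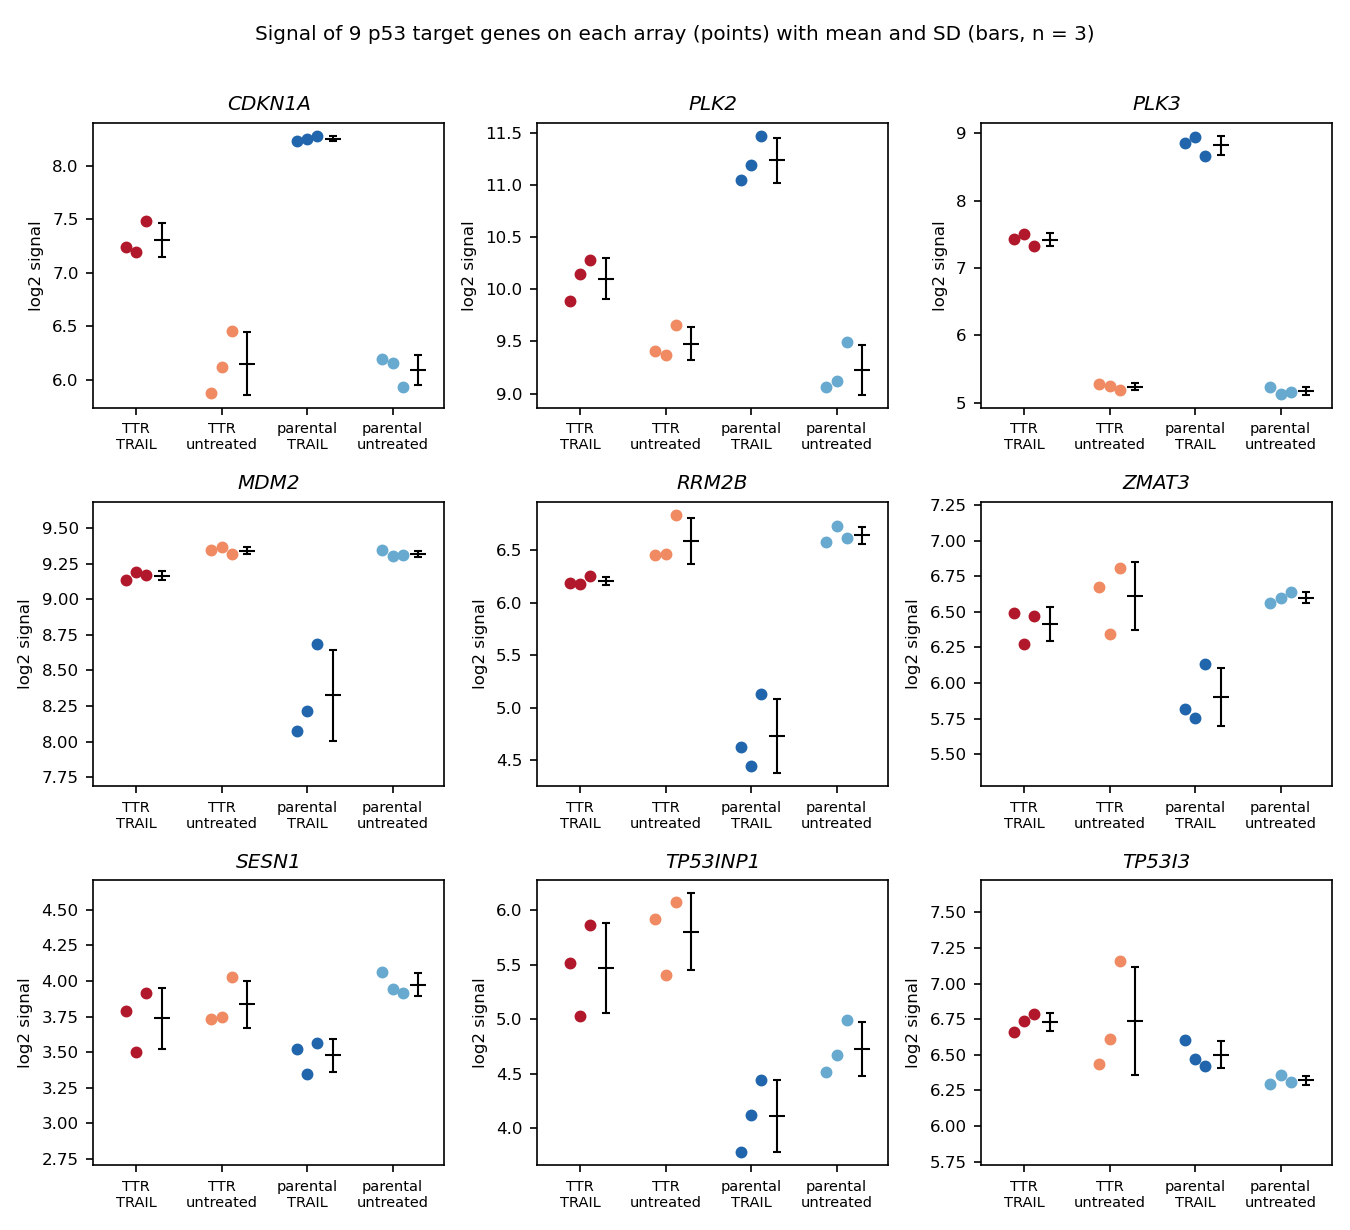
Log2 signal (vertical axes, a separate range for each gene) of the 9 p53 target genes on each of the 12 arrays, by group, with the mean and SD of 3 arrays as bars. PLK3, PLK2 and CDKN1A are high in both TRAIL groups and highest in parental cells, RRM2B and MDM2 are low in TRAIL-treated parental cells, and TP53INP1 is higher in both TTR groups than in both parental groups.

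The next question was whether TTR cells responded to the same TRAIL dose. In the reported fit, which does not pair arrays, the same 3 genes were called, all higher. That is 3 of 9, where 3.27% of all genes were called higher and 2.55% lower. A fit of these groups alone that pairs arrays by replicate number called 5 of 9 (3 higher, 2 lower), where 2670 of all 18417 genes passed. Arrays did not overlap for PLK3, CDKN1A, PLK2, RRM2B and MDM2, 5 of 9 in all, against 27.5% of all genes. PLK3 stood at 7.42, 7.51 and 7.33 with TRAIL, against 5.28, 5.25 and 5.18 in untreated TTR cells. All treated arrays lay well above the untreated ones. The group means differed 4.54-fold (2.18 ± 0.10, adjusted p = 2.66e-10), which ranked 30 among 18417 genes from the largest rise.

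CDKN1A stood at 7.24, 7.19 and 7.48 with TRAIL, against 5.88, 6.12 and 6.46 in untreated TTR cells, a 2.22-fold rise without overlap (1.15 ± 0.13, adjusted p = 4.01e-05). PLK2 stood at 9.89, 10.15 and 10.28 with TRAIL, against 9.41, 9.37 and 9.66 without, a 1.54-fold rise, also without overlap (0.62 ± 0.14, adjusted p = 0.0184). The PLK2 call was lost without untreated array 2 (adjusted p = 0.0900) or TRAIL array 2 (0.0855) or 3 (0.0752), and the adjusted p lay between 7.71e-04 and 0.0900 across alternatives.

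RRM2B stood at 6.19, 6.18 and 6.25 with TRAIL, against 6.45, 6.46 and 6.84 in untreated TTR cells. The groups did not overlap, but the difference of −0.38 ± 0.15 did not pass (adjusted p = 0.147). With the replicate number, which pairs these TTR arrays, as a block in a fit of these groups alone, RRM2B passed (adjusted p = 0.0279), as did TP53INP1 at −0.33 (adjusted p = 0.0302), which made 5 of 9, where 2670 of all 18417 genes passed. RRM2B also passed without the parental TRAIL arrays in the fit (adjusted p = 0.0428) and after median centring (adjusted p = 0.0405). MDM2 stood at 9.14, 9.19 and 9.17 with TRAIL, against 9.34, 9.37 and 9.32 without. Those groups did not overlap either, and the difference of −0.18 ± 0.12 did not pass (95% interval −0.44 to 0.09, adjusted p = 0.468). The other 4 genes had overlapping arrays. ZMAT3 spanned 6.27 to 6.49 with TRAIL, against 6.34 to 6.81 in untreated TTR cells (−0.20, adjusted p = 0.423). SESN1 spanned 3.50 to 3.92 with TRAIL, against 3.74 to 4.03 without (−0.10, adjusted p = 0.715). Untreated TTR cells were the most variable for TP53I3, which spanned 6.66 to 6.79 with TRAIL, against 6.44 to 7.16 without (−0.01, adjusted p = 0.986). TP53INP1 stood at 5.52, 5.03 and 5.86 with TRAIL, against 5.92, 5.40 and 6.08 without (adjusted p = 0.42), and each TRAIL array lay below the untreated array of the same number.

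Whether TRAIL acted unequally in the 2 lines was then tested directly, by subtracting the parental change from the TTR change. This passed for 6 of 9 genes, 3 above and 3 below 0, where 37.2% of all genes passed, 22.9% above and 14.3% below. PLK3 was at −1.46 ± 0.14 (adjusted p = 1.24e-06), PLK2 at −1.39 ± 0.20 (adjusted p = 5.11e-05) and CDKN1A at −1.01 ± 0.19 (adjusted p = 4.32e-04), so each rose less in TTR cells. RRM2B was at 1.53 ± 0.21 (adjusted p = 2.83e-05), MDM2 at 0.82 ± 0.17 (adjusted p = 0.00143) and ZMAT3 at 0.50 ± 0.18 (adjusted p = 0.0374), so each lay lower with TRAIL in parental cells by more than in TTR cells. ZMAT3 was lost in 10 of 19 alternatives, among them quantile normalization (adjusted p = 0.0676), with adjusted p from 0.00453 to 0.107. SESN1 at 0.40 ± 0.17 did not pass (adjusted p = 0.0761) but passed in 5 of 18 alternatives, among them median centring (0.0115), quantile normalization (0.0141) and the replicate block (0.0430). For TP53INP1 (0.28 ± 0.30, 95% interval −0.36 to 0.92) and TP53I3 (−0.19 ± 0.20, −0.61 to 0.23) a difference was not detectable, with adjusted p of 0.509 and 0.503.

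**Figure D2:**
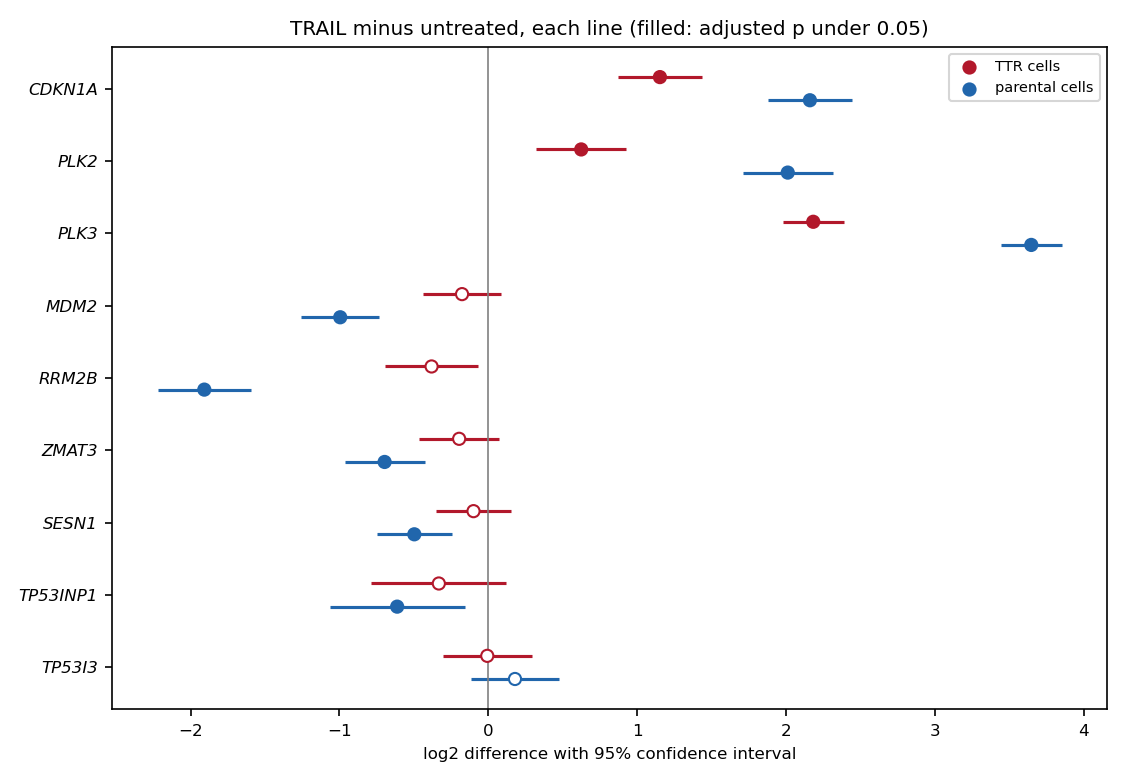
TRAIL minus untreated (log2, horizontal axis) for each of the 9 genes in TTR cells (red) and parental cells (blue), with 95% confidence intervals from the limma fit without a replicate block and filled points for adjusted p under 0.05. The intervals of the lines are apart for PLK3, PLK2, CDKN1A, MDM2 and RRM2B, and only PLK3, PLK2 and CDKN1A are filled in both lines.

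Without TRAIL, TTR and parental cells were compared to see which p53 target levels the resistant line carries at rest. TP53INP1 was the only 1 of 9 genes called, where 7.11% of all genes were called, 3.64% higher and 3.47% lower. Its arrays and those of TP53I3 did not overlap, 2 of 9, against 24.6% of all genes. It stood at 5.92, 5.40 and 6.08 in untreated TTR cells, against 4.51, 4.67 and 4.995 in untreated parental cells. The lowest TTR array exceeded the highest parental one. The group means differed 2.11-fold (1.08 ± 0.21, adjusted p = 0.00499), and the call held in each of its 22 alternatives. TP53I3 spanned 6.44 to 7.16 in TTR cells, against 6.30 to 6.36 in parental cells, without overlap and with TTR array 3 well above the other TTR arrays. Its difference of 0.42 ± 0.14 did not pass (adjusted p = 0.0914) but did with array weights (0.0478) and without TTR untreated array 1 (0.0189), over a range of 0.0189 to 0.352.

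For the 3 genes that rose with TRAIL, no difference in the untreated level was detectable. PLK3 differed by 0.07 (95% interval −0.14 to 0.27), CDKN1A by 0.06 (−0.22 to 0.34) and PLK2 by 0.25 (−0.05 to 0.56), each with overlapping arrays. MDM2 differed by 0.02 (−0.24 to 0.28), ZMAT3 by 0.01 (−0.26 to 0.28), RRM2B by −0.05 (−0.37 to 0.26) and SESN1 by −0.14 (−0.39 to 0.12). None of these 7 genes passed (adjusted p from 0.383 to 0.981).

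With TRAIL in both lines, 7 of 9 genes differed, 4 higher and 3 lower in TTR cells, where 54.4% of all genes were called, 28.0% higher and 26.4% lower. Arrays did not overlap for 8 of 9, all but SESN1, against 60.2% of all genes. RRM2B was 2.78-fold higher in TTR cells (1.47 ± 0.15, adjusted p = 3.50e-07), TP53INP1 2.56-fold (1.36 ± 0.21, adjusted p = 4.92e-05), MDM2 1.79-fold (0.84 ± 0.12, adjusted p = 2.35e-05) and ZMAT3 1.42-fold (0.51 ± 0.13, adjusted p = 0.0027). PLK3 was 2.64-fold lower in TTR cells (−1.40 ± 0.10, adjusted p = 6.91e-09), PLK2 2.20-fold (−1.13 ± 0.14, adjusted p = 4.63e-06) and CDKN1A 1.93-fold (−0.95 ± 0.13, adjusted p = 1.31e-05). SESN1 (0.26 ± 0.12, adjusted p = 0.0753) and TP53I3 (0.23 ± 0.14, adjusted p = 0.178) did not pass as deposited and both passed after median centring (0.0036 and 0.0161), SESN1 also with the replicate block (0.0442). The comparisons of lines with TRAIL and of TRAIL with no TRAIL share arrays and are not independent of each other.

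**Figure D3:**
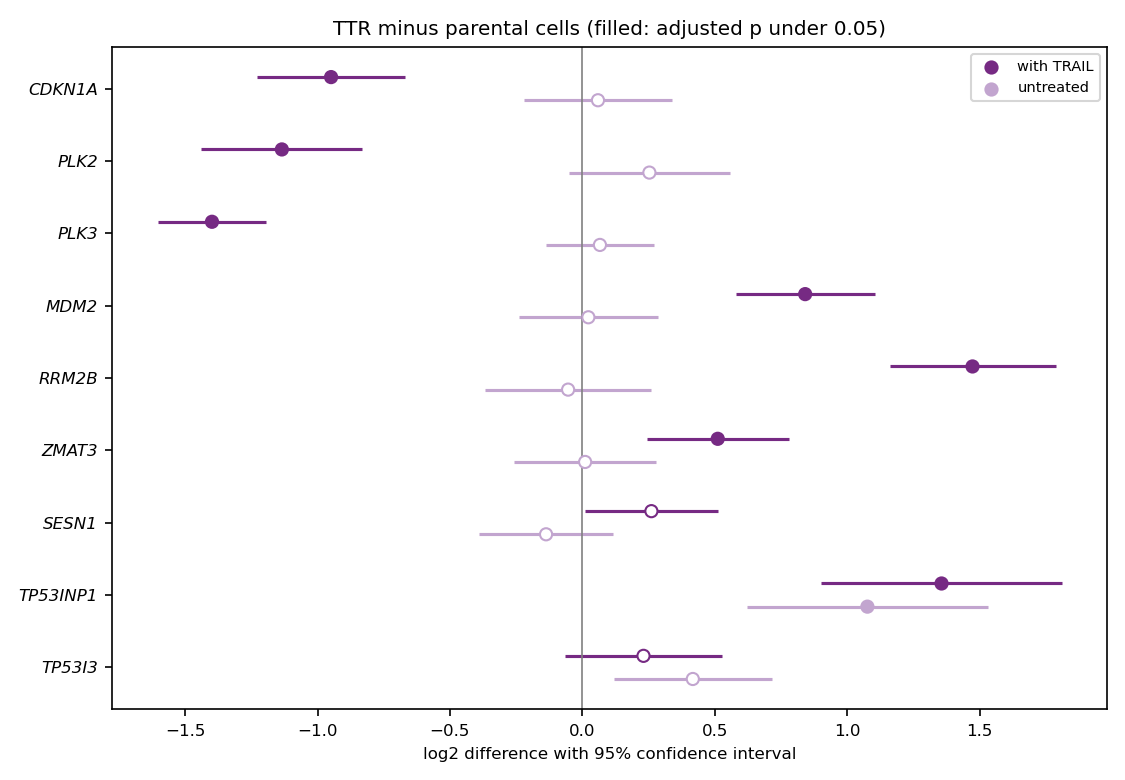
TTR minus parental cells (log2, horizontal axis) for each of the 9 genes with TRAIL (dark) and untreated (light), with 95% confidence intervals and filled points for adjusted p under 0.05. Untreated, TP53INP1 alone is filled, at 1.08, and with TRAIL 7 genes are filled, from −1.40 for PLK3 to 1.47 for RRM2B.

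Over the 4 groups, the order of levels differed between these genes. PLK3 averaged 7.42 in TRAIL-treated TTR, 5.24 in untreated TTR, 8.82 in TRAIL-treated parental and 5.17 in untreated parental cells. CDKN1A averaged 7.31, 6.15, 8.26 and 6.09 in the same groups, and PLK2 10.10, 9.48, 11.24 and 9.23. For all 3 genes TRAIL-treated parental cells were highest, TRAIL-treated TTR cells next, and the untreated groups did not differ beyond their spread. RRM2B averaged 6.20, 6.58, 4.73 and 6.64 and MDM2 9.17, 9.34, 8.33 and 9.32 in those groups. Both were lowest in TRAIL-treated parental cells, and the other neighbours in their order did not pass the test. ZMAT3 had the same lowest group, at 5.90, against 6.41 to 6.61 in the others. TP53INP1 instead followed the line, with 5.47 and 5.80 in TTR cells with and without TRAIL, against 4.11 and 4.73 in parental cells with and without it. SESN1 group means lay between 3.48 and 3.97 and those of TP53I3 between 6.32 and 6.74.

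Genes whose pattern over the 12 arrays was most like each of the 9 were named by the highest Pearson correlation among 18408 other genes. The arrays form 4 groups, so these values mostly follow the group means and are a description. The closest gene to PLK3 was JUN, an AP-1 subunit (r = 0.998), to PLK2 ADM, the hormone adrenomedullin (0.990), and to CDKN1A CLCN6, a chloride transporter (0.990). The closest to RRM2B was RNF14 (0.993), to MDM2 OLA1 (0.991), to ZMAT3 SAMTOR (0.964), to TP53INP1 SLC38A6 (0.964), to SESN1 ZNF813 (0.935) and to TP53I3 MIR99A (0.883).

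Other p53 targets were described from a wider list of 35 measured genes. With TRAIL in parental cells 10 of the 35 rose, 14 fell and 11 did not pass, where 28.9% of all genes rose and 29.9% fell. Their median difference of 0.05 equalled that of all genes to 2 decimals. GADD45A, a DNA damage-inducible stress protein, averaged 9.40 ± 0.22 with TRAIL and 6.77 ± 0.19 in untreated parental cells (SD), a rise of 6.19-fold (2.63 ± 0.12, adjusted p = 5.74e-11). GDF15, a stress cytokine, rose by 2.34 ± 0.20 and PMAIP1, which encodes the BCL2 antagonist NOXA, by 1.38 ± 0.12. TGFA, a ligand of the EGF receptor, fell (−1.92 ± 0.15), as did TIGAR, a regulator of glycolysis (−1.55 ± 0.12), and the cyclin CCNG1 (−1.47 ± 0.10).

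In TTR cells 4 of the 35 rose and 1 fell, where 3.27% of all genes rose and 2.55% fell. With the replicate block 10 of the 35 passed (5 higher and 5 lower), where 2670 of all 18417 genes did. GADD45A (1.18 ± 0.12, adjusted p = 1.57e-05), SESN2 (0.60 ± 0.13), PMAIP1 (0.47 ± 0.12) and the DNA polymerase POLH (0.37 ± 0.09) rose. The KIT ligand KITLG fell (−0.49 ± 0.13, adjusted p = 0.0421), from a low mean signal of 3.64 to 3.16. Of these calls only that of GADD45A held without each array in turn, and the count of 5 ran from 1, without TTR TRAIL array 1 or 2, to 12, with array weights. The difference between the lines passed for 17 of 35, where 37.2% of all genes passed, with GADD45A at −1.45 ± 0.17, GDF15 at −2.03 ± 0.28 and BBC3, which encodes PUMA, at −1.03 ± 0.18, and with TGFA at 1.46 ± 0.21, TIGAR at 1.18 ± 0.16 and CCNG1 at 1.16 ± 0.15.

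Untreated TTR cells differed from untreated parental cells in 5 of the 35, 3 higher and 2 lower, where 3.64% of all genes were higher and 3.47% lower. TNFRSF10B, a TRAIL receptor and p53 target, spanned 7.18 to 7.56 in TTR cells, against 8.33 to 8.56 in parental cells (−1.05 ± 0.13, adjusted p = 7.95e-05). SERPINB5 was also lower (−0.61 ± 0.10), and APAF1 of the apoptosome (0.65 ± 0.11), KITLG (0.55 ± 0.13) and POLH (0.35 ± 0.09) were higher. KITLG and POLH were lost without untreated TTR array 2 (adjusted p = 0.0506 and 0.112) and without other single untreated arrays. Mean signals of SERPINB5 (2.62 in TTR and 3.22 in parental cells) and KITLG (3.64 and 3.10) were low, so background can be a large share. With TRAIL in both lines 19 of 35 differed, 10 higher and 9 lower in TTR cells, a share near the 54.4% of all genes. CCNG1 (1.16 ± 0.10), TIGAR (1.25 ± 0.12), APAF1 (1.15 ± 0.11) and TGFA (1.29 ± 0.15) were higher in TTR cells, and GDF15 (−2.35 ± 0.20) and PMAIP1 (−1.28 ± 0.12) lower.

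Regulators of p53 were described from a second list, of which 21 genes were measured. TP63 was not analysed here. With TRAIL in parental cells 5 of the 21 rose and 9 fell, where 28.9% of all genes rose and 29.9% fell, and their median was −0.15, against 0.05 over all genes. MDM4, the partner of MDM2 in restraining p53, moved against MDM2: it averaged 7.51 ± 0.09 with TRAIL and 6.21 ± 0.30 in untreated parental cells (SD), a rise of 1.29 ± 0.13 (adjusted p = 3.19e-07). The ubiquitin ligases RCHY1 (−2.15 ± 0.16) and COP1 (−0.73 ± 0.10), which also act on p53, fell, as did the methyltransferase PRMT5 (−1.31 ± 0.10), the deubiquitinase USP7 (−1.21 ± 0.16) and the checkpoint kinase CHEK1 (−1.11 ± 0.12). TP73, the p53 relative, rose by 0.32 ± 0.10 (adjusted p = 0.0088), which did not hold after median centring (0.03, adjusted p = 0.794) or quantile normalization (0.15, adjusted p = 0.252).

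In TTR cells MDM4 rose with TRAIL (0.76 ± 0.13, adjusted p = 0.00268) and COP1 fell (−0.46 ± 0.10, adjusted p = 0.0153), while TP73 was at 0.14 (adjusted p = 0.463). That was 2 of 21, where 5.82% of all genes were called, or 5 with the replicate block, where 2670 of 18417 genes were. The COP1 call was lost without untreated TTR array 2 or 3 or TTR TRAIL array 1 (adjusted p from 0.0639 to 0.0882). The difference between the lines passed for 8 of 21, near the 37.2% of all genes, with RCHY1 at 1.62 ± 0.23, USP7 at 1.19 ± 0.22, PRMT5 at 1.08 ± 0.14, CHEK1 at 0.98 ± 0.16, the p53-binding protein TP53BP2 at 0.69 ± 0.18 and the DNA damage kinase ATM at −0.49 ± 0.13, which was lost after median centring (adjusted p = 0.0853). MDM4 also passed (−0.54 ± 0.19, adjusted p = 0.0334), but not in 9 alternatives, among them median centring (−0.35, adjusted p = 0.164), while TP73 did not (−0.18, adjusted p = 0.323).

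Untreated, TTR cells had less MDM4 (−0.51 ± 0.13, adjusted p = 0.0292) and DAXX (−0.59 ± 0.15, adjusted p = 0.0229) and more COP1 (0.37 ± 0.10, adjusted p = 0.038) than parental cells, 3 of 21 where 7.11% of all genes were called. None of these 3 calls held without untreated TTR array 2 or 3 (adjusted p from 0.0543 to 0.141). TP73 was at −0.19 (adjusted p = 0.303). With TRAIL in both lines 14 of 21 differed, 8 higher and 6 lower in TTR cells, where 28.0% of all genes were higher and 26.4% lower. Among them were RCHY1 (1.74 ± 0.16), USP7 (1.08 ± 0.16), PRMT5 (1.05 ± 0.10), CHEK1 (1.02 ± 0.12), COP1 (0.64 ± 0.10), MDM4 (−1.04 ± 0.13) and TP73 (−0.38 ± 0.10, lost after median centring with adjusted p = 0.168).

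**Figure D4:**
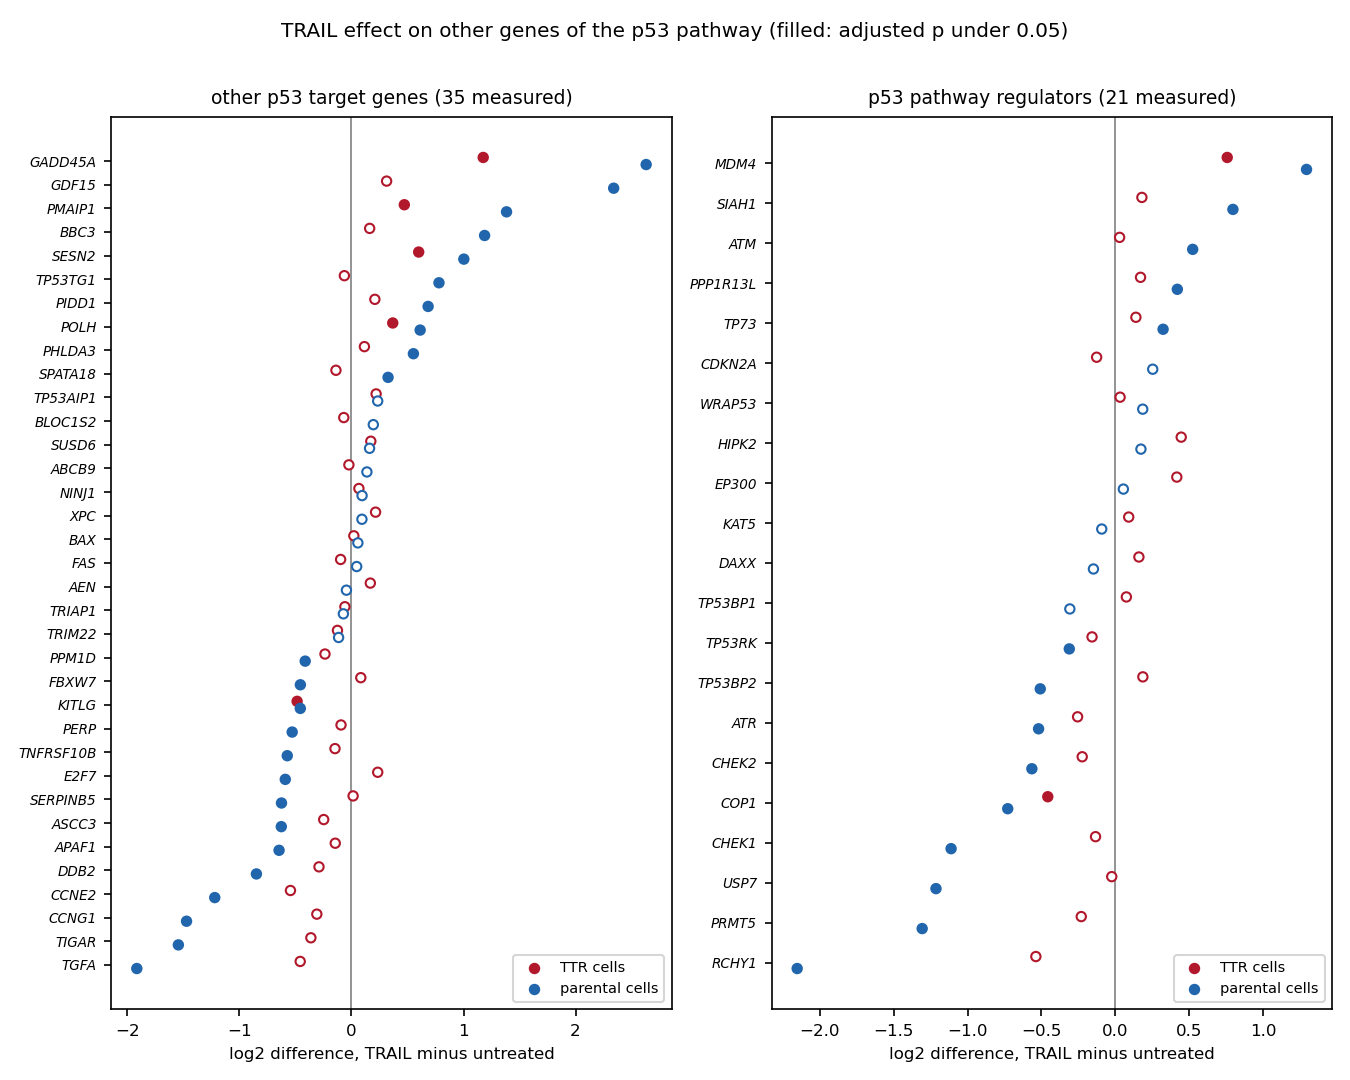
TRAIL minus untreated (log2, horizontal axis) for 35 other p53 target genes and 21 regulators of p53, in TTR cells (red) and parental cells (blue), sorted by the parental difference, with filled points for adjusted p under 0.05. Blue points run from −1.92 for TGFA to 2.63 for GADD45A on the left and from −2.15 for RCHY1 to 1.29 for MDM4 on the right, and few red points are filled.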

How the data were processed

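Biotin-labelled cRNA of Trizol-extracted total RNA was hybridised to Affymetrix arrays, per the labels' protocols. The deposited log2 values were made by the authors with RMA in Affymetrix Power Tools, per the submitters' processing notes. Not given in the sources used here: tool versions, settings and the build behind the features, so no coordinates of the array features are printed. The promoter coordinates above are those of RefSeq on GRCh38.p14. No detection measure was used, so low levels can be background.

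Of 33252 rows, 19460 named 1 gene, 1754 several and 12038 none, by GEO's platform annotation. The row with the highest mean over the 12 arrays was kept per gene, which gave 18417 genes, and no filter on low values was applied. Gene identifiers of 19429 rows matched RefSeq (GRCh38.p14, names only). One fit of all 12 arrays was made by limma 3.58.1 under R 4.3.3 (1 mean per group, no block, lmFit and eBayes, 8 residual degrees of freedom). Tests were two-sided with Benjamini-Hochberg adjustment over all genes. The fitting code was also run on simulated arrays with a common spread for all genes and no array shifts. That run checked the code and not the calls on these arrays. Alternatives were median centring, quantile normalization, a filter that leaves out the lowest 33.3% of genes, the mean of a gene's rows, all rows in the adjustment, array weights, fewer groups, a replicate block and leaving out each array.

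Same-numbered samples share a code in their descriptions, whose meaning the labels do not give. Same-numbered arrays of the TTR groups deviated together from their group means (r = 0.322, 0.146 and 0.395 across genes). Those numbers were used as pairs only in the replicate-block alternatives, and the reported fit does not pair arrays. In the other pairs of groups compared at least 1 correlation was 0.1 or lower. Named genes were the 10 targets and a few set regulators (TP63, TP73 and MDM4 among them) in every comparison, and the 6 called genes with the smallest p of each further list. The genes and lists were chosen with earlier results of these data known. Promoter windows came from RefSeq. Figures were drawn with matplotlib 3.10.9.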

Additional observations from a re-analysis of the deposited data

Results flagged for a closer look

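The TRAIL effect differed between the lines, by the test of the difference itself, for 6 of the 9 p53 target genes, where it did for 37.2% of all genes. With the parental change subtracted from the TTR change, CDKN1A was at −1.01, PLK2 at −1.39 and PLK3 at −1.46, and MDM2 at 0.82, RRM2B at 1.53 and ZMAT3 at 0.50. The ZMAT3 call was lost in 10 of 19 alternatives.

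The same test passed for 17 of the 35 other p53 targets, where 37.2% of all genes passed. GADD45A was at −1.45, GDF15 at −2.03 and BBC3 at −1.03, and CCNG1 at 1.16, TIGAR at 1.18 and TGFA at 1.46. It passed for 8 of 21 regulators of p53, near the 37.2% of all genes. MDM4 was at −0.54 and ATM at −0.49, and neither passed after median centring (adjusted p = 0.164 and 0.0853). CHEK1 was at 0.98, TP53BP2 at 0.69, USP7 at 1.19, RCHY1 at 1.62 and PRMT5 at 1.08. All of these rest on the TRAIL-treated parental arrays, which stood apart from the other arrays and make up one of the 4 groups in the test. Groups of 3 arrays were too small for a test of single outlying arrays.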

How the results depend on the processing

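The counts of the 9 genes called moved by more than 1.5 times in few settings. For TRAIL in TTR cells the 3 became 5 (3 higher, 2 lower) with the replicate block and only those groups, an alternative added after the data were seen. The 3 became 4 after median centring or without the parental TRAIL arrays, a move of less than 1.5 times. For untreated TTR against parental cells the 1 became 2 with array weights. Leaving out each array gave 2 to 3 for TRAIL in TTR cells, 7 to 8 for TRAIL in parental cells, 7 to 8 for the lines with TRAIL, 1 to 2 for the untreated lines, and 5 to 7 for the difference between the lines.

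Over all genes, TRAIL in TTR cells gave 1072 calls as reported, 2391 after median centring (448 higher, 1943 lower), 3199 with array weights, 2670 with the replicate block and only those groups, 1709 without the parental TRAIL arrays, and 379 to 1487 leaving out each array. Untreated TTR against parental cells gave 1310, or 2386 with array weights and 782 to 1553 leaving out each array. Leaving out each array gave 9805 to 10917 for TRAIL in parental cells, 8772 to 10152 for the lines with TRAIL and 6008 to 6912 for the difference. With every row of the table, which tests more features, TRAIL in parental cells gave 17193 in place of 10827 and the lines with TRAIL 15367 in place of 10017. Median centring turned the split to 6839 higher and 2391 lower for the lines with TRAIL (5164 and 4853 as reported), and to 5410 and 1275 for the difference (4224 and 2628).

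For single genes, 2027 of 2123 values under an alternative had the same outcome as reported, which includes genes called in neither fit. Of the rest, 79 lost a call, 17 gained one and 0 turned a called direction. The replicate block changed no call of the 9 genes other than those given above and SESN1 with all arrays in the fit (adjusted p = 0.0442 for the lines with TRAIL and 0.0430 for the difference). Calls of the 5 other p53 targets and 3 regulators that differed between the untreated lines ran from 3 to 9 and 0 to 4. The causes of these moves were not tested. The signal of SESN1 was too low to pass the filter on dim genes.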
